A study of Mus musculus with 6 samples.

Results

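Macrophage identity depends on a small group of transcription factors, and 9 of them were followed here in mouse bone marrow-derived macrophages (BMDMs) after a brief exposure to lipopolysaccharide (LPS), a component of the outer membrane of Gram-negative bacteria that is sensed through TLR4. The genes were Spi1, Runx1, Maf, Mef2a, Mef2c, Mitf, Tfe3, Tfec and Tfeb. They were chosen by name, as the rows of the gene count table whose Ensembl identifier carries one of these symbols in the GENCODE M21 annotation, and all 9 of the 9 names were found among 55335 rows. The rule uses no measured value, although earlier results of these data were known when the names were chosen. Spi1 encodes PU.1, the ETS factor that opens and marks myeloid enhancers, and Runx1 encodes a Runt-domain factor that binds DNA together with CBFβ. Maf is a large MAF bZIP factor of differentiated macrophages. Mef2a and Mef2c are MADS-box factors whose activity is held down by class IIa histone deacetylases and raised by kinases such as p38 and ERK5. Mitf, Tfe3, Tfec and Tfeb make up the MiT family, bHLH leucine zipper factors that dimerize with each other and control lysosomal and osteoclast genes, and whose entry into the nucleus is set by mTORC1, folliculin and calcineurin.

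The libraries were total RNA from C57BL/6 BMDMs. Bone marrow cells had been grown for 6 days with L929-conditioned medium before treatment, and the mice of the study were 7 to 10 weeks old. The 3 Control libraries came from cells given PBS and the 3 LPS libraries from cells given LPS, each for 1 h. The library names mark both groups as wild type (WT), and the labels give no other allele, the LPS dose for these libraries was not given in the sources used here, and whether replicates came from separate mice or separate cultures was not stated, so p-values measure the spread between these libraries. Each Control library shares a batch number in the labels with 1 LPS library, and what the batch stands for was not stated.

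Library totals ranged from 37787611 to 41516330 counts. The TMM factors, by which edgeR scales libraries, were 1.15 in each Control library and between 0.864 and 0.872 in the LPS libraries, so the choice of scaling bears on small differences. A count of 3, taken as the floor, corresponded to 0.0630 to 0.0919 CPM (counts scaled to library totals, here always scaled by the TMM factors), and it covers counting error only. The 8 macrophage markers were all above the floor and summed to 29946 to 31229 CPM in Control and 35887 to 36245 CPM in LPS libraries. Much of the difference came from Cd14, with means of 398 CPM in Control and 3623 CPM in LPS libraries, while Fcgr1 was lower (396 and 284 CPM). At an adjusted p below 0.05, 6 of the 8 were higher, 1 was lower and 1 was neither. Among all tested genes 32.9% were higher and 34.9% lower at that threshold. The neutrophil list of 8 genes summed to 44.0 to 47.0 CPM in Control and 57.7 to 61.9 CPM in LPS libraries, with Ly6g at or under the floor. The 4 T cell genes summed to 20.4 to 22.3 and 30.4 to 30.9 CPM, nearly all of it from Cd4, and the 4 B cell genes to 0.861 to 1.08 and 1.10 to 1.49 CPM. Each of these sums was higher in every LPS library than in any Control library. The 5 dendritic cell genes summed to 2.24 to 2.67 and 6.80 to 7.63 CPM, and 4 of the 5 passed the test as higher in LPS libraries at these low levels. Xcr1 had 2, 1 and 2 counts with PBS against 27, 17 and 15 with LPS. Cd209a had 8, 8 and 10 against 13, 14 and 19. Both passed the filter on low counts only through the LPS libraries, so their calls as higher depended in part on that filter. The 4 osteoclast genes summed to 44.2 to 45.7 and 56.7 to 58.8 CPM, and the 4 fibroblast genes to 11.3 to 12.2 and 13.1 to 14.3 CPM. Melanocyte, mast cell and erythroid lists stayed at or under 1.10 CPM in every library, with Tyr, Dct and Mlana of the first, Mcpt4 and Tpsb2 of the second, and Hbb-bs of the third at or under the floor. The part of these other cell types in the differences of the members was not tested, and in bulk RNA fewer cells of a type and less RNA per cell cannot be told apart.

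The MiT family holds the members with the largest differences, and its genes are alike where their products touch DNA. The 4 coding stretches printed here are the 20 codons most alike among the 4 genes. They lie in the basic region that contacts the E-box, and each crosses 1 exon junction. They are shown because counts of such similar genes could in principle be mixed. Capitals mark the 38 of 60 bases that all 4 genes share.
Mitf: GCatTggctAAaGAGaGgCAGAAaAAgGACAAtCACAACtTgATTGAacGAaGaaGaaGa
Tfec: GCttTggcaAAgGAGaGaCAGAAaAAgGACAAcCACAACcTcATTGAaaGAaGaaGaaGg
Tfeb: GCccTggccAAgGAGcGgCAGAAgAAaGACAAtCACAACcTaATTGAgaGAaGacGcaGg
Tfe3: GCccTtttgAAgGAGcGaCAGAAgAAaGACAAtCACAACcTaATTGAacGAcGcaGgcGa

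On GRCm38 these stretches lie at chr6:98006155-98010411 on the plus strand for Mitf, chr6:16840528-16844237 on the minus strand for Tfec, chr17:47788251-47788925 on the plus strand for Tfeb and chrX:7770788-7771011 on the plus strand for Tfe3, with the intron included in each span. Pairs of the 4 stretches shared between 43 bases (Mitf with Tfe3, and Tfec with Tfe3) and 51 bases (Mitf with Tfec). Even so, no 100-base window of any annotated Mitf, Tfec, Tfeb or Tfe3 transcript occurred in a transcript of another gene, and none of the 4 genes shared exonic bases with another gene.

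Tfec, a MiT gene expressed mainly in macrophages, rose about 7-fold within the hour and was the 1 member of 9 to pass both criteria, which were an adjusted p below 0.05 and a log2 fold change beyond 1 in size. No member passed them as lower. Across the 15687 genes tested, 10.5% passed as higher and 10.4% as lower, so 1 of 9 is near the background. At the adjusted p alone 7 members were higher and 2 were lower, against 32.9% and 34.9% of all tested genes. In no member did the Control and LPS libraries overlap in CPM, which also held for 33.9% of tested genes in the higher and 36.6% in the lower direction. The median log2 fold change of the 9 members was 0.22, and that of all tested genes -0.01.

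Tfec (ENSMUSG00000029553.10, chr6:16833373-16898441, minus strand) had 735, 665 and 791 counts with PBS against 3797, 3583 and 3999 with LPS. These corresponded to 15.4, 14.7 and 17.1 CPM and to 113, 110 and 118 CPM, so every LPS library lay far above every Control library. The log2 fold change was 2.85 (SE 0.05, edgeR's quasi-likelihood test, Benjamini-Hochberg adjusted p = 6.46e-19), a 7.20-fold difference that exceeded those of 96.6% of tested genes. Within batches 1, 2 and 3 the log2 ratio was 2.87, 2.90 and 2.78.

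Tfeb, the MiT factor best known for switching on lysosome and autophagy genes, went the other way. Its counts (ENSMUSG00000023990.18, chr17:47737030-47792419, plus strand) were 2293, 2292 and 2216 with PBS against 926, 926 and 862 with LPS, or 48.2, 50.7 and 48.0 against 27.6, 28.4 and 25.3 CPM. All 3 LPS libraries lay below all 3 Control libraries. The level in LPS libraries was 55.3% of that in Control (log2 fold change -0.85, SE 0.05, adjusted p = 2.90e-11), short of the fold criterion. With library size alone the log2 fold change was -1.26 and met it. The ratios within batches were -0.80, -0.84 and -0.92 on the log2 scale.

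Mitf, the founding member of the family and a regulator of osteoclasts, melanocytes and mast cells, and Tfe3, a broadly expressed relative, differed far less. Mitf (ENSMUSG00000035158.15, chr6:97807052-98021349, plus strand) had 132, 129 and 134 CPM with PBS against 164, 159 and 165 CPM with LPS, and the groups were tight and separate. Its log2 fold change was 0.31 (SE 0.03, adjusted p = 1.52e-07), with batch ratios of 0.31 in each batch. Tfe3 (ENSMUSG00000000134.17, chrX:7762560-7775202, plus strand) had 79.4, 88.7 and 86.6 CPM with PBS against 97.4, 97.9 and 88.9 CPM with LPS, so that its highest Control library almost touched its lowest LPS library. Its log2 fold change was 0.16 (SE 0.05, adjusted p = 0.00545), and the batch ratios ran from 0.30 in batch 1 to 0.04 in batch 3.

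**Figure D1:**
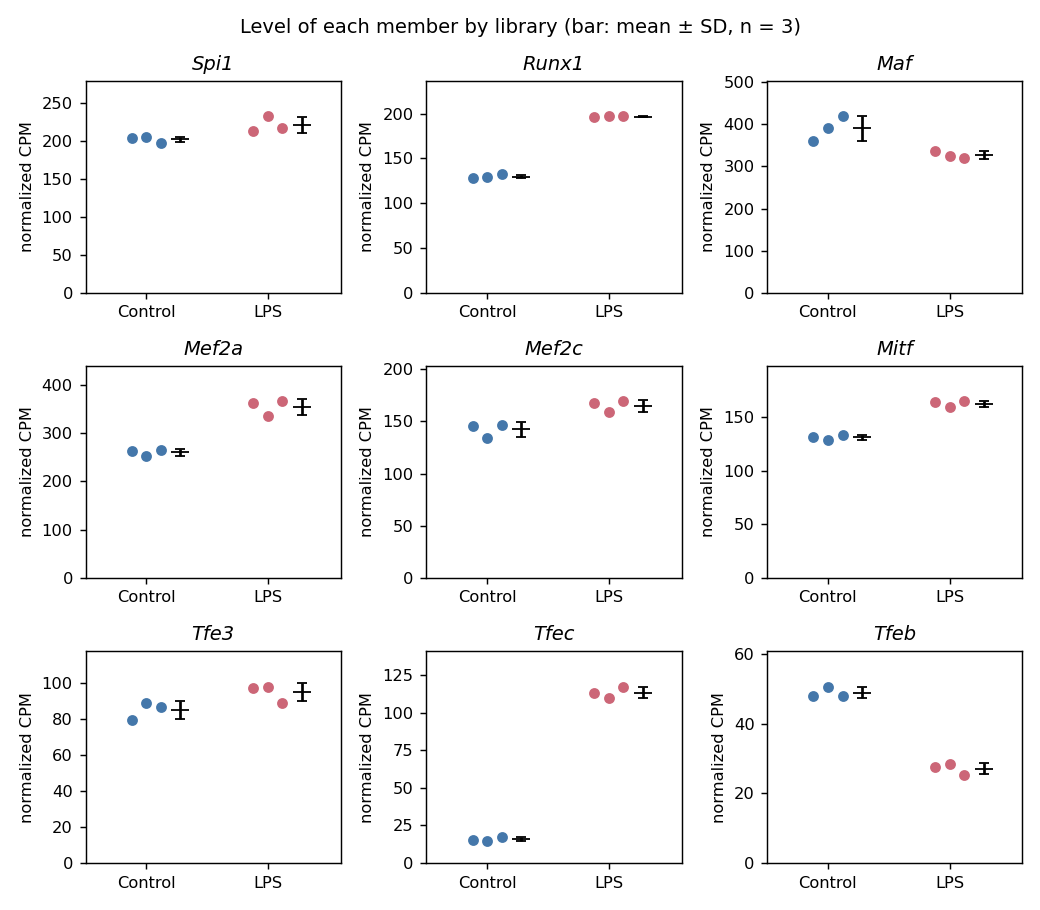
Normalized CPM (linear axes from 0) of the 9 members in the 3 Control (blue) and 3 LPS (red) libraries, where black bars give the mean ± SD. Tfec sits at 14.7 to 17.1 CPM in Control and 110 to 118 CPM in LPS libraries, Tfeb sits at 48.0 to 50.7 CPM and 25.3 to 28.4 CPM, and the other 7 members differ by smaller folds.

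Opposite differences in Tfec and Tfeb altered the make-up of the family. The share of each gene was taken in the summed per-length level, that is CPM per kilobase of exonic sequence, of the 4 genes in a library. Tfec made up 6.74% ± 0.48 (SD, n = 3) of this sum in Control and 32.9% ± 0.97 (SD, n = 3) in LPS libraries. Tfeb made up 20.7% ± 0.68 (SD, n = 3) and then 7.77% ± 0.49 (SD, n = 3). Mitf went from 50.7% ± 1.1 (SD, n = 3) to 42.7% ± 0.47 (SD, n = 3), and Tfe3 from 21.9% ± 1.0 (SD, n = 3) to 16.6% ± 0.94 (SD, n = 3), although the CPM of both was higher in LPS libraries. With the longest annotated transcript in place of all exonic bases, Tfec held 7.07% and 35.9%, Tfeb 31.7% and 12.4%, and Mitf 40.9% and 35.7%, in Control and LPS libraries. The order of Mitf and Tfec in LPS libraries thus depended on the length used, with overlapping libraries for the longest transcript.

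**Figure D2:**
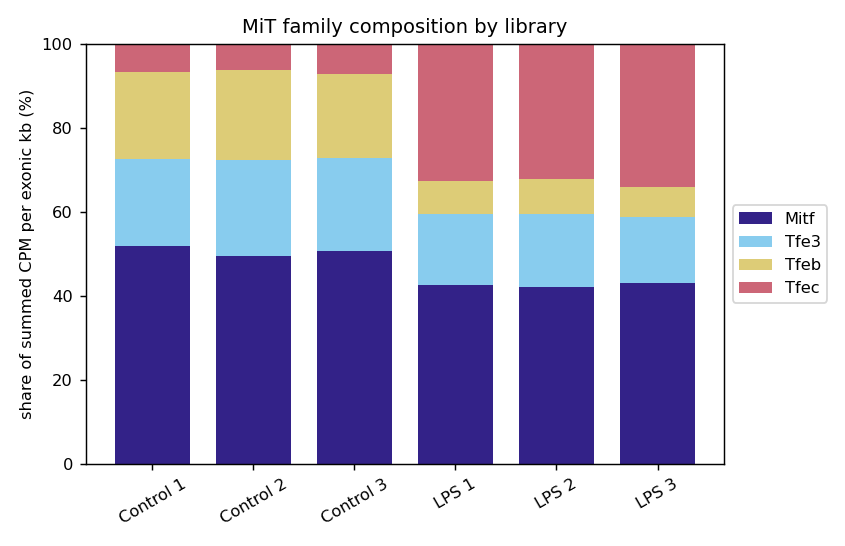
Share of Mitf, Tfe3, Tfeb and Tfec in the summed CPM per exonic kilobase of the 4 MiT genes, in percent, for each of the 6 libraries. The Tfec share is 6.27 to 7.22% in the Control libraries and 32.2 to 34.0% in the LPS libraries, while the Tfeb share is 20.0 to 21.3% and 7.24 to 8.22%.

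Ratios of 2 genes within a library do not depend on how libraries are scaled to each other. For 8 pairs the log2 ratio of per-length counts was compared between the groups by a two-sided exact permutation test, whose smallest possible p with 3 libraries in each group is 0.1. The test took the libraries as unpaired, although same-numbered libraries share a batch number. After Benjamini-Hochberg adjustment over the 8 pairs, a p of 0.1 became 0.114. The design therefore could not reach 0.05, and sizes are given instead. The Tfec to Tfeb ratio had log2 values of -1.62, -1.77 and -1.47 with PBS against 2.05, 1.97 and 2.23 with LPS, so Tfeb exceeded Tfec in every Control library and Tfec exceeded Tfeb in every LPS library. This is a 13.0-fold difference in the ratio (log2 difference 3.70, exact p = 0.1). The Tfec to Tfe3 ratio differed by 2.69 and the Mitf to Tfec ratio by -2.54, and in both the groups lay apart (exact p = 0.1 each). Tfeb was lower relative to Tfe3 by 1.01 (log2 difference -1.01) and relative to Mitf (Mitf to Tfeb, 1.16), again with separate groups and an exact p of 0.1 each. The Mitf to Tfe3 ratio differed by 0.15 with overlapping groups (exact p = 0.2, adjusted 0.2), within the spread between libraries.

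Regulators of MiT proteins were measured as a list of 12 genes, all tested. None passed both criteria as higher and 1 passed as lower, Flcn, which encodes folliculin, the RagC/D GTPase activator that lets mTORC1 act on MiT factors. Flcn had 5098, 5067 and 4979 counts with PBS against 1690, 1697 and 1768 with LPS, with no overlap and a log2 fold change of -1.08 (SE 0.04, adjusted p = 1.16e-14). The median of the list was 0.13. At the adjusted p alone 7 genes were higher and 3 lower, against 32.9% and 34.9% of all tested genes. Both criteria were met as higher by 10.5% and as lower by 10.4% of all tested genes. The next lowest values were those of the folliculin partner Fnip2 (-0.33) and the Rag GTPase gene Rragc (-0.23), and the highest those of Rraga (0.68) and the calcineurin subunit genes Ppp3r1 (0.32) and Ppp3ca (0.30), none of which met the fold criterion.

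Among 21 genes named as MiT targets, mostly of lysosomes, autophagy and osteoclasts, 2 passed as higher and none as lower, with a median log2 fold change of 0.07. Sqstm1, the autophagy receptor p62, had 21449, 19982 and 20583 counts with PBS against 54895, 54638 and 54460 with LPS (log2 fold change 1.87, SE 0.03, adjusted p = 9.35e-19). Acp5, the osteoclast phosphatase TRAP, rose from 375, 313 and 353 to 645, 618 and 632 counts (log2 fold change 1.34, SE 0.07, adjusted p = 6.70e-12), and missed the fold criterion with library size alone (0.93). The proton pump gene Atp6v0d1 followed with 0.36, short of the fold criterion. The lowest values belonged to the chloride transporter gene Clcn7 (-0.25), the protease gene Ctsk (-0.13) and the pump subunit gene Atp6v0d2 (-0.10). At the adjusted p alone 9 targets were higher, 4 lower and 8 neither. Among all tested genes 32.9% were higher and 34.9% lower in this way, and 10.5% and 10.4% passed both criteria.

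Spi1 (ENSMUSG00000002111.8, chr2:91082390-91115756, plus strand) had 9699, 9242 and 9115 counts with PBS against 7151, 7587 and 7389 with LPS. After scaling these were 204, 205 and 198 against 213, 232 and 217 CPM, so the LPS libraries lie lower in counts and slightly higher in CPM. The log2 fold change was 0.13 (SE 0.04, adjusted p = 0.00450), 1.09-fold, and its sign turned when libraries were scaled by total alone (-0.28) or by the upper quartile (-0.013). The batch ratios were 0.07, 0.18 and 0.14.

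Runx1 (ENSMUSG00000022952.17, chr16:92601466-92826149, minus strand) was the member with the second highest difference. It had 128, 129 and 132 CPM with PBS against 196, 197 and 197 CPM with LPS. The log2 fold change was 0.60 (SE 0.03, adjusted p = 8.57e-12), 1.52-fold and above those of 84.0% of tested genes, with batch ratios of 0.61, 0.61 and 0.57. It stayed positive at 0.20 with library size alone. Within a library the Spi1 to Runx1 ratio was 2.83, 2.83 and 2.74 on the log2 scale with PBS against 2.28, 2.40 and 2.30 with LPS, a difference of -0.47 (exact permutation p = 0.1, the smallest possible). Cbfb, the partner of RUNX1 on DNA, had a log2 fold change of -0.01 with overlapping groups.

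The relatives of Spi1 and Runx1 were far scarcer and moved more on the log2 scale. Runx3, better known from T cells, had 13, 15 and 9 counts with PBS against 152, 138 and 159 with LPS (log2 fold change 4.06, SE 0.18, adjusted p = 1.04e-12). Runx2, the osteoblast factor, had 150, 119 and 146 counts and then 235, 212 and 197 (1.11, SE 0.11). Spic, a factor of red pulp macrophages, had 70, 62 and 49 counts and then 106, 138 and 143 (1.57, SE 0.16). Spib, of B cells and plasmacytoid dendritic cells, had 55, 44 and 39 counts and then 77, 80 and 66 (1.16, SE 0.18). All 4 passed both criteria, yet per kilobase each stayed at or under 1.01 CPM in the mean of the LPS libraries, where Spi1 reached 82.0 ± 3.8 (SD, n = 3) and Runx1 16.3 ± 0.04 (SD, n = 3). With library size alone the log2 fold changes of Spib (0.76) and Runx2 (0.70) missed the fold criterion, and that of Runx2 also missed it with upper quartile scaling (0.96).

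Known PU.1 and RUNX1 targets were represented by 17 genes, of which 1 passed as higher and none as lower. It was Cd14, the LPS co-receptor, with 19310, 17641 and 18358 counts with PBS against 120406, 119924 and 122739 with LPS (log2 fold change 3.19, SE 0.03, adjusted p = 4.12e-22). The median of the list was 0.23, near that of the members. The scavenger receptor gene Msr1 (0.88) and the NADPH oxidase gene Cybb (0.68) came next, short of the fold criterion. The lowest values were those of the LPS receptor gene Tlr4 (-0.75), the Fc receptor gene Fcgr1 (-0.48) and the kinase gene Btk, whose value rounds to 0.00. At the adjusted p alone 13 targets were higher and 2 lower, against 32.9% and 34.9% of all tested genes. The shares of all tested genes passing both criteria were 10.5% as higher and 10.4% as lower.

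Maf (ENSMUSG00000055435.6, chr8:115682942-115707794, minus strand) was the second member that was lower. It had 17187, 17655 and 19344 counts with PBS against 11305, 10617 and 10889 with LPS, or 361, 391 and 419 against 337, 325 and 320 CPM. The log2 fold change was -0.25 (SE 0.04, adjusted p = 6.81e-05), 83.9% of Control. The lowest Control and the highest LPS library both came from batch 1, and the batch ratios were -0.10, -0.26 and -0.39.

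The small MAF genes, which lack a transactivation domain, did not move as a block. Maff had 62, 63 and 69 counts with PBS against 6988, 7016 and 6770 with LPS, a 148-fold rise (log2 fold change 7.21, SE 0.06, adjusted p = 1.76e-23). Mafg had a log2 fold change of 0.51 and Mafk of -0.19, neither past the fold criterion.

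Of 6 genes named as MAF targets, Il10 passed as higher and none as lower, and the median was 0.18. The shares among all tested genes were 10.5% and 10.4%. Il10, the anti-inflammatory cytokine, had 323, 284 and 315 counts with PBS against 47965, 44681 and 48867 with LPS (log2 fold change 7.73, SE 0.05, adjusted p = 1.22e-24). The mannose receptor gene Mrc1 (0.40) and the complement gene C1qb (0.25) were next, and C1qa (-0.07), C1qc (0.07) and the scavenger receptor gene Cd163 (0.11) were the lowest.

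Mef2a (ENSMUSG00000030557.17, chr7:67231163-67372858, minus strand) had 264, 252 and 265 CPM with PBS against 362, 336 and 366 CPM with LPS. Its groups lay well apart, with a log2 fold change of 0.44 (SE 0.04, adjusted p = 7.19e-09), 1.36-fold. Mef2c (ENSMUSG00000005583.16, chr13:83504034-83667080, plus strand) had 146, 134 and 147 CPM with PBS against 168, 159 and 169 CPM with LPS, with a log2 fold change of 0.22 (SE 0.04, adjusted p = 1.01e-04). In both genes replicate 2 was the lowest library of its group. The Mef2a to Mef2c ratio was higher in every LPS library, by 0.23 on the log2 scale (exact permutation p = 0.1). Batch ratios were 0.46, 0.41 and 0.46 for Mef2a and 0.20, 0.24 and 0.20 for Mef2c.

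Their relative Mef2d had 2391, 2338 and 2381 counts with PBS against 3299, 3356 and 3247 with LPS, a log2 fold change of 0.95 (SE 0.04, adjusted p = 1.63e-13) just short of the fold criterion. Among all tested genes 10.5% passed as higher and 10.4% as lower. The 7 MEF2 regulators held none that passed as higher and 1 that passed as lower, with a median of -0.00335. It was Mapk7, which encodes the MEF2 kinase ERK5, with 1498, 1456 and 1435 counts with PBS against 456, 425 and 499 with LPS (log2 fold change -1.20, SE 0.06, adjusted p = 1.29e-12). The class IIa deacetylase genes had log2 fold changes of 0.38 for Hdac5, 0.27 for Hdac4, 0.16 for Hdac9 and -0.41 for Hdac7, and the calcineurin inhibitor gene Cabin1 of -0.17. Of 5 MEF2 targets 2 passed as higher and none as lower, with a median of 0.90. The nuclear receptor gene Nr4a1 had 185, 199 and 214 counts with PBS against 23881, 23112 and 22653 with LPS (log2 fold change 7.33). Klf4, a Krüppel-like factor of monocytes, had 2.17, and Klf2 (0.90), Hdac9 (0.16) and Jun (-0.18) missed a criterion.

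**Figure D3:**
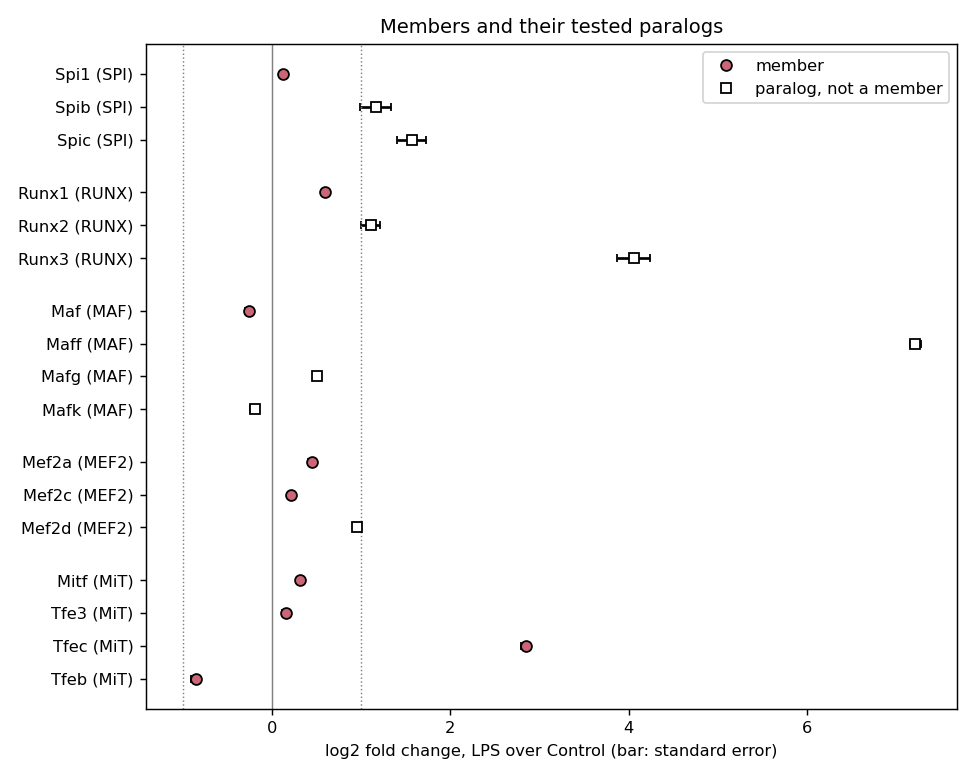
Log2 fold change of LPS over Control (edgeR, where bars are standard errors, dotted lines the fold criterion) for the 9 members (filled circles) and their 8 tested paralogs (open squares), grouped by family. Members lie between -0.85 (Tfeb) and 2.85 (Tfec), while Maff (7.21) and Runx3 (4.06) lie further right among the paralogs.

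In all, 8 of 11 paralogs of the members were tested, 5 passed as higher, none passed as lower, and their median log2 fold change was 1.13. Of all tested genes 10.5% passed as higher and 10.4% as lower. Runx3 passed the filter on low counts through its LPS libraries. With at least 10 counts in every library 7 paralogs were tested, without Runx3. Of these 4 passed as higher, and the median was 1.09. Mafa had 8, 21 and 13 counts with PBS against 2, 8 and 9 with LPS. Mef2b had 6, 16 and 4 against 3, 5 and 3, and neither gene passed the filter on low counts. Nrl had 0 counts in every library.

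Per kilobase of exonic sequence Spi1 was the highest member and Tfec the lowest in Control. The Control levels were 74.9 ± 1.4 (SD, n = 3) for Spi1, 47.4 ± 3.5 for Maf, 21.2 ± 0.39 for Mitf, 17.7 ± 0.48 for Mef2a and 10.8 ± 0.18 for Runx1, in CPM per kilobase. Below these Tfe3 (9.17), Mef2c (9.06) and Tfeb (8.64) overlapped with their neighbours and have no firm order, and Tfec followed at 2.82 ± 0.22. In LPS libraries the first 4 kept that order, at 82.0, 39.7, 26.3 and 24.2. Tfec came next at 20.3 ± 0.69, above Runx1 at 16.3, then Mef2c (10.5) and Tfe3 (10.2), which overlapped, and Tfeb at 4.78 ± 0.28 was last. So Tfec and Tfeb exchanged the last place. The middle of the order depends on the length used. With the longest transcript Mef2a stood above Mitf in Control (47.1) and above Maf in LPS libraries (64.0), and Runx1, Tfec and Mitf overlapped in LPS libraries at 33.5, 33.5 and 33.4, while Spi1 stayed first in both groups and Tfec and Tfeb last in Control and LPS libraries.

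Other lineage factors and partners were set beside the members, as a list that was also chosen with earlier results of these data known. Of 18 tested of 20 genes, 9 passed as higher and 1 as lower, with a median log2 fold change of 1.39, where the members had 1 and 0 of 9 and a median of 0.22. Of all tested genes 10.5% passed as higher and 10.4% as lower. The lineage median depended on which scarce genes were tested, and was 0.50 with no filter (20 genes) and 0.51 with at least 10 counts in every library (16 genes), against 0.19 and 0.20 for the members. Of those 16 genes 7 passed as higher, and Gata2 and Gfi1, both called higher in the main fit, were no longer tested. Gata2 had 8, 16 and 10 counts with PBS against 219, 214 and 202 with LPS. Gfi1 had 10, 2 and 8 counts with PBS against 44, 46 and 53 with LPS. Both passed the main filter through their LPS libraries. The highest were the inhibitor of DNA binding Id3, with 52, 39 and 58 counts with PBS against 6391, 6328 and 6426 with LPS (7.47), the progenitor factor Gata2 (4.68) and the early response factor Egr1 (3.79). The lowest were Cebpa (-1.001), which encodes the myeloid partner C/EBPα of PU.1, Irf8 (-0.80), which pairs with PU.1 on DNA, and Bhlhe41 (-0.59). Cebpa stood at the fold criterion, with 2855, 3303 and 3018 counts with PBS against 1088, 1161 and 1062 with LPS. It no longer passed when the batch number entered the fit as a block (log2 fold change -0.999), and it also missed with DESeq2's size factors, DESeq2's test, limma voom, or without Control replicate 2, LPS replicate 1 or LPS replicate 3, each of which left 0 genes of the list called lower. Gata1 had at most 10 counts and Gata6 at most 3, and neither was tested.

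**Figure D4:**
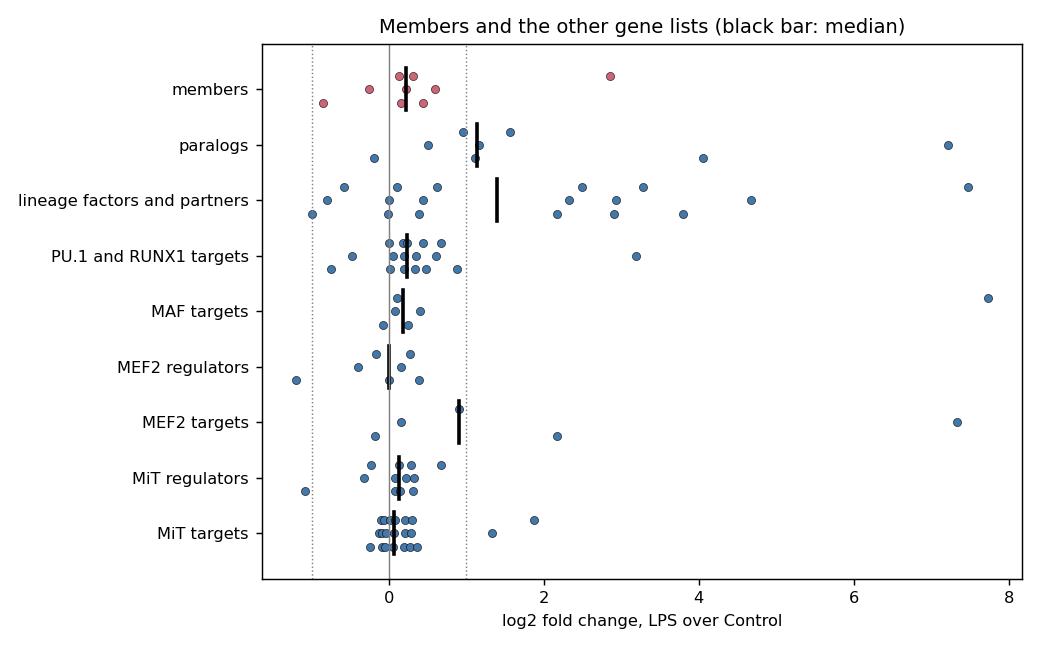
Log2 fold change of LPS over Control for each tested gene of the members (red) and of 8 lists of relatives, partners, regulators and targets (blue), where black bars are medians and dotted lines the fold criterion. The members have a median of 0.22, the paralogs of 1.13 and the lineage factors and partners of 1.39 (0.50 with no filter), and the target and regulator lists other than the 5 MEF2 targets (0.90) have medians between -0.00335 and 0.23.

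The sign of small differences depended on the scaling. TMM factors differed between the groups, and with library size alone the median of all tested genes shifted by -0.40 on the log2 scale, with upper quartile scaling by -0.14. With library size alone 29.0% of all calls were higher, against 50.4% with TMM. Then Spi1 (-0.28), Tfe3 (-0.25), Mef2c (-0.19) and Mitf (-0.10) turned negative, Mef2a stood at 0.04, and Maf reached -0.66. Upper quartile scaling turned only the sign of Spi1 among the members. A change of scaling shifts every gene by nearly the same amount, so values relative to the median of all tested genes hardly move. The members thus had to keep their order and sign there under all 4 scalings (TMM, DESeq2's size factors, upper quartile, library size alone). On that relative scale Spi1 was at 0.14, Maf at -0.24, Mef2c at 0.23, Runx1 at 0.61 and Mef2a at 0.46 under each of the 4, beside Tfec at 2.86 and Tfeb at -0.84. The median of the members went from 0.22 to -0.19 with library size alone and to 0.073 with upper quartile scaling. The medians of the lists of MiT targets, MiT regulators, PU.1 and RUNX1 targets and MAF targets likewise turned negative with library size alone, at -0.33, -0.27, -0.17 and -0.23, and those of MiT targets (-0.07) and MiT regulators (-0.01) also with upper quartile scaling. That of the MEF2 regulators, near 0 with TMM, was 0.015 with DESeq2's size factors and -0.41 with library size alone.

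**Figure D5:**
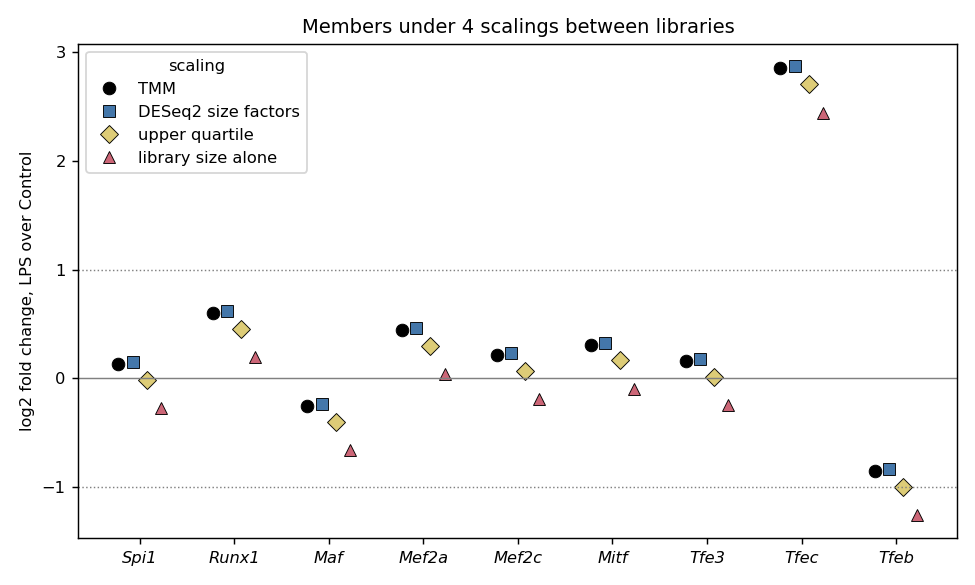
Log2 fold change of LPS over Control of the 9 members under 4 ways of scaling libraries to each other (TMM, DESeq2 size factors, upper quartile, library size alone), where dotted lines are the fold criterion. Tfec stays between 2.44 and 2.87 and Tfeb below 0 under each, whereas Spi1, Mef2c, Mitf and Tfe3 lie below 0 with library size alone.

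Annotated neighbours shared exonic bases with 3 members, and the strand setting used in counting was not given in the sources used here. Maf shares 440 bases (5.34% of its exonic bases) with the antisense gene Gm15655, which had between 3 and 13 counts. Mef2a shares 302 bases (2.06%) with Lysmd4 on the other strand, which had 347, 300 and 314 counts with PBS against 65, 55 and 56 with LPS, against 10957 or more for Mef2a in each library. Runx1 shares 106 bases (0.881%) with the antisense gene Gm26626, which had at most 3 counts. Intronic sequence of Mef2a also holds Gm44667 and Gm44668, transcripts on the same strand still to be experimentally checked. Gm44667 had 675 to 835 counts and a log2 fold change of 0.58. Gm44668 had 181 to 306 counts and a log2 fold change of 0.06, with overlapping groups. Of 100-base windows in member transcripts, 3.72% of those of Maf, 2.08% of those of Mef2a and 0.0573% of those of Runx1 also occurred in other genes.

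Promoter windows from RefSeq (GRCm38.p6, 250 bases before to 50 after a start) were at hand for 7 members with 15 windows, and none for Spi1 and Maf. The bases before the start of Tfec and of the first Tfeb window are printed because these genes had the largest differences in either direction. Capitals mark RUNX core matches (TGTGGT, either strand), of which the Tfec stretch has 1 and the Tfeb stretch has none.
Tfec, chr6:16898442-16898691, minus strand: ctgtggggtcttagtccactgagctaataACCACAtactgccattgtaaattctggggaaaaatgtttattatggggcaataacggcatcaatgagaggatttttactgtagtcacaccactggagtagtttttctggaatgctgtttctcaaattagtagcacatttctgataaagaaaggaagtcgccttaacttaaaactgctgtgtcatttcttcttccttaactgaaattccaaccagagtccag
Tfeb, chr17:47736787-47737036, plus strand: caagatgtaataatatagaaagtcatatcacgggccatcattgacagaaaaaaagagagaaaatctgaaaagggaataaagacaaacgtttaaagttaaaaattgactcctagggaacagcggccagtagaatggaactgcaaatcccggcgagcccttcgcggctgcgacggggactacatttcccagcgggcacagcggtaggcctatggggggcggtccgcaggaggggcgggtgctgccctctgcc

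The G and C content of these stretches was 39.2% for Tfec and 51.6% for Tfeb. On both strands 6 motifs were searched in the full windows, without removing overlaps between motifs. The RUNX core, TGTGGT, occurred in 4 of the 15 member windows and 16.8% of 32851 mouse promoter windows, and in Tfec it began 221 bases before the start. The PU-box core, GAGGAA, occurred in 5 member windows and 28.3% of all windows, among them the Tfec window, where it lies after the start at position 34. The E-box CACGTG that MiT factors bind occurred in 1 member window, of Runx1, and 7.15% of all windows. AP-1 sites (TGANTCA) were in 2 member windows and 7.81% of all, NF-κB motifs in 2 and 4.51%, and MEF2 motifs in 1, that of Mef2a itself, and 3.19%. The 3 Tfeb windows held none of the 6 motifs. These are matches of letters and no evidence of binding.

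Genes whose pattern over the 6 libraries lay nearest to that of Tfec and Tfeb were sought among 12136 tested genes that averaged 50 counts or more, by Euclidean distance of gene-centred log2 CPM. Nearest to Tfec were Thap6 (distance 0.0861, log2 fold change 2.88), Gm45222 (0.1104, 2.79) and Id2, an inhibitor of bHLH factors (0.122, 2.79). Nearest to Tfeb were the centromere gene Cenpu (0.0506, -0.89), the DNA repair gene Xpc (0.0613, -0.82) and the lipoic acid synthase gene Lias (0.0705, -0.83). With 3 libraries in each group these distances mostly reflect the size of the group difference.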

How the data were processed

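Total RNA of BMDMs was sequenced by the authors as 3 Control and 3 LPS libraries with a stranded kit. The authors aligned reads to GRCm38 (HISAT2 2.1.0, per the submitters' processing notes), counted them per gene (featureCounts 2.0.0) and deposited raw counts without normalization. The strand setting and annotation release were not given in the sources used here. Groups and replicate numbers came from the labels. Of 55335 identifiers, 55154 matched GENCODE M21 and 181 did not, and coordinates and exonic lengths are from that release.

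Counts were tested in R 4.3.3 with edgeR 4.0.16 (default filterByExpr, TMM, quasi-likelihood F test, Benjamini-Hochberg over 15687 genes). Calls needed an adjusted p below 0.05 together with a log2 fold change beyond 1 in size. Standard errors follow from the F statistic. The members and lists were chosen with earlier results of these data known. Named genes are the members, the tested paralogs, up to 3 highest and 3 lowest genes of each list, genes overlapping a member's exons and the nearest patterns. Cbfb, Gfi1 and the intronic genes Gm44667 and Gm44668 were named outside this rule, after their values were seen. A paralog, its ratio to a member and a marker gene are not reported here.

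Alternatives were scaling by library size alone, by DESeq2's size factors or by the upper quartile, no filter, at least 10 counts in every library, DESeq2 1.42.0, limma 3.58.1 voom, a replicate block, leaving out each library, the adjusted p alone and the longest transcript as length. Beside the replicate number, the labels have a batch field, which gives same-numbered Control and LPS libraries 1 batch number, so these are paired by label. Their deviations from the group means correlated at -0.0139, 0.0822 and 0.0387 in batches 1, 2 and 3. The main fit has no block, after the study's methods.

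On simulated counts for 15687 genes with 200 changed by a log2 fold change of 2, edgeR recovered 200 with 2 false calls, DESeq2 199 with 0 and voom 200 with 5.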

Additional observations from a re-analysis of the deposited data

How the results depend on the processing

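Of the 9 members, Tfec was called higher under every alternative run, at log2 fold changes from 2.44 to 2.91. Signs turned with library size alone for Spi1 (-0.28), Mef2c (-0.19), Mitf (-0.10) and Tfe3 (-0.25), and with upper quartile scaling for Spi1 (-0.013), where the scaling itself moves the median of all genes. With library size alone 1 member was called lower, where of all 15687 tested genes 2964 were called lower and 1213 higher. At the adjusted p alone 2 members were then higher and 6 lower, and with upper quartile scaling 4 were higher. The shares of all tested genes at the adjusted p alone are not given for these scalings. Library size alone also gave 3 paralogs called higher, 2 lineage factors and 1 PU.1 and RUNX1 target called lower, and 1 MiT target called higher, without Acp5 (0.93). Cebpa left the lineage list with 0 called lower under DESeq2's size factors, DESeq2's test, limma voom and the replicate block, and leaving out single libraries gave 0 to 1. Among the members and lists the replicate block changed no other call. Dropping the fold criterion gave 7 members higher and 2 lower, against 32.9% and 34.9% of all tested genes. In the lists it gave 7 paralogs higher and 1 lower, and 11 lineage factors higher and 3 lower. It gave 2 MEF2 regulators higher and 3 lower, and 7 MiT regulators higher and 3 lower. Among targets it gave 13 of PU.1 and RUNX1 higher and 2 lower, and 4 of MAF higher and none lower. It gave 3 of MEF2 higher and 1 lower, and 9 of MiT higher and 4 lower. Depth limits Spib, Spic, Runx2 and Runx3, which rest on at most 235 counts in a library, and not the members, whose lowest count was 665.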
